A study of Mus musculus with 24 samples.

Results

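The transcripts of 10 genes of mitochondrial fusion, fission and mitophagy were measured in mouse tibialis anterior (TA) muscle with and without photobiomodulation therapy (PBMT). The genes were taken from a list of names (Mfn1, Mfn2, Opa1, Dnm1l, Fis1, Mff, Oma1, Pink1, Fundc1 and Sqstm1), each matched to 1 Ensembl identifier, and make up 10 of the 55487 genes listed for each mouse. All 10 passed the filter on low counts and were tested. Mitochondria form a network that is joined by fusion and divided by fission. Mitofusins join the outer membranes and Opa1 the inner membranes, whereas the GTPase Drp1, the product of Dnm1l, is recruited by adaptors such as Mff and Fis1 and constricts the organelle. Damaged parts can be removed by mitophagy, either through ubiquitin that the kinase Pink1 initiates and adaptors such as Sqstm1 (p62) bind, or through receptors in the outer membrane such as Fundc1, and in skeletal muscle this turnover is known to respond to exercise.

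The study asked how near-infrared light changes sedentary muscle and muscle run to fatigue, and it also imaged mitochondria in the opposite limb, which was not analysed here. Male wild-type C57BL/6J mice aged 5 to 7 weeks were divided by exercise state (sedentary or fatigued) and by light (control or PBMT) into 4 groups of 6. PBMT was a single exposure to LEDs emitting at 830 nm, at 25 mW/cm2 over 20 min, a dose of 30 J/cm2, 24 h before the left TA was taken. Controls underwent shaving and anesthesia but received no light. The paper states that core temperature was monitored in control and PBMT mice and held alike, with a fan where needed. It used no heat-only group, so that heating by the device had no control of its own. Fatigued mice ran on a treadmill to exhaustion and were dissected directly afterwards, and they were sequenced as a project apart from the sedentary mice, so that exercise state and sequencing project cannot be told apart in any comparison of fatigued with sedentary muscle. Total counts per mouse were 43271093 to 46904076 in sedentary controls, 46327516 to 52775844 in sedentary PBMT mice, 56792327 to 68726155 in fatigued controls and 53122528 to 68566029 in fatigued PBMT mice. The 10 genes were covered by 741 to 59972 counts per mouse. Expression is given as CPM, the counts scaled to library size by TMM over the 24 mice. A gene was called where its adjusted p in the quasi-likelihood test of edgeR was below 0.05 over all genes tested.

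Some libraries stood apart from their groups. Sedentary control replicate 4 lay 0.501 log2 units (root mean square over 15108 genes) from its group mean, against 0.304 to 0.339 in the other sedentary controls. In that mouse the 13 protein genes of the mitochondrial genome took up 2.61% of the counts, where the other sedentary controls had 14.3% to 15.6%. Among the 12 sedentary mice it was extreme in 8 of the 10 genes, with the highest Sqstm1, Mfn1, Mfn2, Fis1 and Pink1 and the lowest Dnm1l, Mff and Fundc1. Fatigued PBMT replicate 5 lay 0.509 from its group mean, against 0.316 to 0.407 in the other fatigued PBMT mice, and had the lowest Mfn1 and Mfn2 of its group. Profiles also differed with base composition. Across genes, which are not independent replicates, the deviation of a mouse from the mean of the 24 mice had a Spearman rho with the GC content of the transcript of -0.359 to -0.0635 in 11 of the 12 sedentary mice, 0.471 in sedentary control replicate 4, and 0.00550 to 0.290 in the 12 fatigued mice. Over the 10 genes, the median absolute deviation from the other mice of the group was 0.331 log2 units in sedentary control replicate 4, 0.221 in fatigued PBMT replicate 1, 0.206 in fatigued PBMT replicate 5 and 0.181 in sedentary PBMT replicate 6. The other 20 mice had at most 0.134. Fatigued PBMT replicate 1 was also the only mouse of its group with a negative rho between deviation and transcript length (-0.202). For the 10 genes, calls and the larger log2 fold changes that 1 library or these trends moved are given with and without them. The gene lists are counted again without sedentary control replicate 4 and with the trends removed further below.

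**Figure D1:**
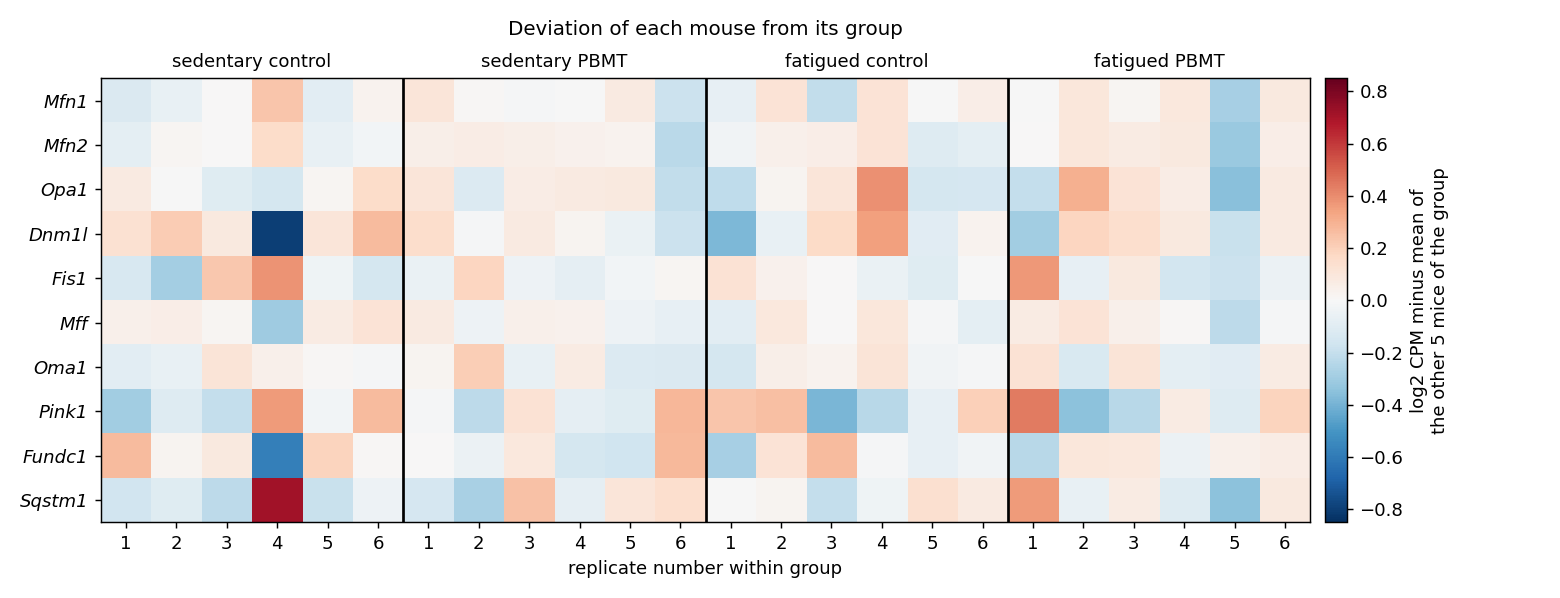
Each square is the log2 CPM of 1 gene (row) in 1 mouse (column) minus the mean of the other 5 mice of its group, red for higher and blue for lower. Sedentary control replicate 4 is high for Sqstm1 and low for Dnm1l and Fundc1, and fatigued PBMT replicate 5 is low for Opa1, Sqstm1, Mfn2 and Mfn1.

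Levels of different genes were compared only per length, as CPM per kilobase of the longest annotated transcript, over the 24 mice. On this scale Pink1 was highest at 341 ± 48.5 (SD, n = 24), followed by Sqstm1 at 209 ± 48.5 and Mfn2 at 151 ± 9.16. Fis1 (74.7 ± 8.29) was the most abundant fission gene and lay above the second mitofusin, Mfn1 (59.5 ± 5.04), in 24 of 24 mice. Mff (29.7 ± 3.33), Opa1 (25.5 ± 3.04) and Dnm1l (18.5 ± 2.57) came next. Oma1, which encodes a stress-activated protease of the inner membrane that cleaves Opa1, and Fundc1 were lowest, at 12.0 ± 0.969 and 10.9 ± 1.49. The gap between these last genes, 1.10, was smaller than the SD of Fundc1, and over the 24 mice pooled the other gaps between neighbours were larger than both SDs. The pooled gap between Sqstm1 and Mfn2 comes mostly from the fatigued mice. In sedentary controls Sqstm1 was at 169 ± 40.2 and Mfn2 at 150.4 ± 7.51 (SD, n = 6). The same genes were in sedentary PBMT mice at 172 ± 19.4 and 148 ± 9.25, and in fatigued controls at 250.4 ± 16.6 and 154 ± 7.76.

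**Figure D2:**
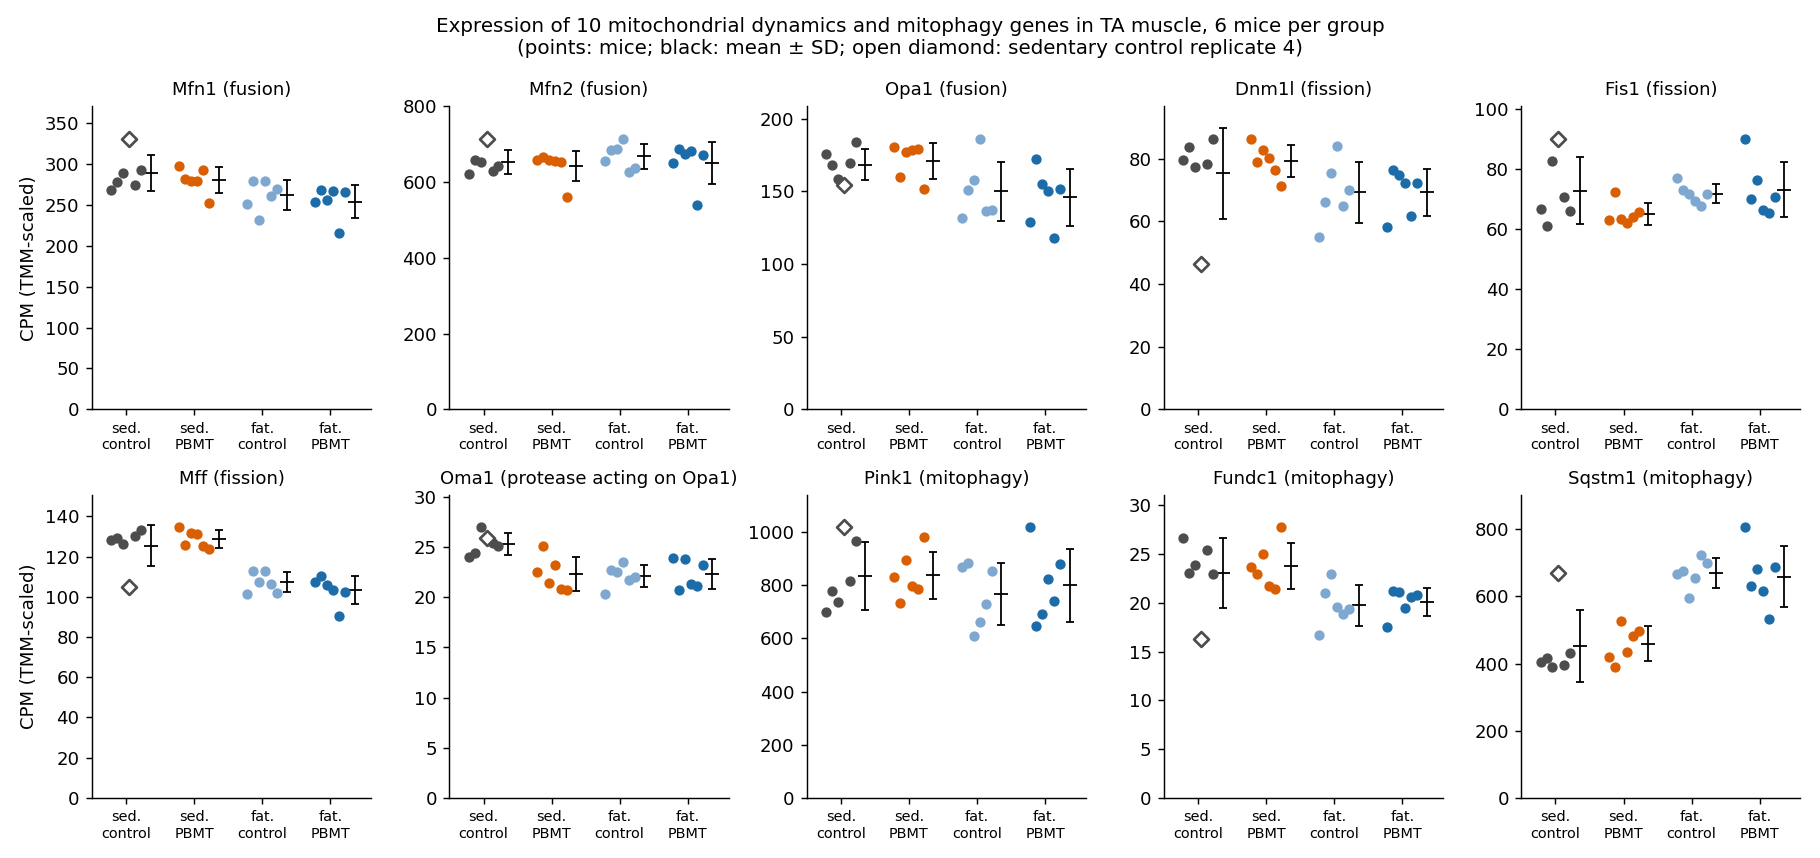
Each panel gives the CPM of 1 gene in the 24 mice, 6 in each of the sedentary (sed.) and fatigued (fat.) control and PBMT groups, with the mean and SD in black and sedentary control replicate 4 as an open diamond. Sqstm1 lies at 594 to 724 CPM in fatigued controls and at 389 to 527 CPM in sedentary PBMT mice, and Mff lies lower in fatigued than in sedentary muscle except in the diamond.

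The first comparison asked whether PBMT changed these transcripts in sedentary muscle. None of the 10 genes was called with edgeR (0 of 10, against 0.0282% of all genes), and DESeq2 called 0 of 10 as well. At an unadjusted p below 0.05, edgeR had 1 of the 10, Oma1, and 7.63% of all genes. Nor did PBMT and control mice separate fully in any of the 10 genes, where this happened in 0.48% of all genes. The median log2 fold change was 0.02 over the 10 genes and -0.00186 over all genes. With 6 mice a group, the 95% intervals of the fold changes lay between 0.793 and 1.26 for the 10 genes, so larger changes in either direction were outside the intervals. A p above the threshold does not show that the groups were equal.

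Among the fusion genes, Mfn1, a mitofusin that tethers neighbouring mitochondria, had 289 ± 22.5 CPM in sedentary controls and 280.4 ± 15.8 CPM with PBMT (SD, n = 6 each). Mfn2, the mitofusin that also links mitochondria to the endoplasmic reticulum, had 653 ± 32.6 CPM and 643 ± 40.2 CPM, and Opa1 had 168 ± 10.8 CPM and 171 ± 12.4 CPM in the same order. These differences were smaller than the SD within either group. The log2 fold change of Mfn1 was -0.04 with the 12 mice, -0.001 without sedentary control replicate 4, the highest control, and -0.09 with the length and GC trends removed. Oma1 ranged from 24.01 to 27.0 CPM (median 25.3) in sedentary controls and from 20.7 to 25.1 CPM (median 21.99) with PBMT. Of the PBMT mice, 5 of 6 lay below the lowest control, and PBMT replicate 2 lay among the controls. The log2 fold change of Oma1 was -0.18 (standard error 0.0651, 95% interval 0.803 to 0.973 on the fold scale), and it did not pass after adjustment (edgeR adjusted p = 0.581, 0.284 to 0.881 over the alternative fits). By permutation the difference had an exact two-sided p of 0.00649 for this gene alone, among 10 genes looked at. Without sedentary control replicate 4 its log2 fold change was -0.18 (edgeR adjusted p = 0.396).

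Of the fission genes, Dnm1l had 75.3 ± 14.5 CPM in sedentary controls and 79.3 ± 5.16 CPM with PBMT, and Mff, a receptor for its product on the outer membrane, had 125 ± 10.3 CPM and 129 ± 4.40 CPM (SD, n = 6 each). In both genes the SD of the controls came largely from replicate 4, and without it the means were 81.1 ± 3.82 and 129.5 ± 2.71 CPM (SD, n = 5). Fis1 had 72.9 ± 11.1 CPM and 65.2 ± 3.70 CPM, a log2 fold change of -0.16 (standard error 0.0847, edgeR adjusted p = 0.667). With the trends on transcript length and GC content removed, the log2 fold change of Fis1 was -0.01, and without sedentary control replicate 4 it was -0.09 (standard error 0.0679). Across all genes, the log2 fold changes of this comparison had a Spearman rho of 0.325 with transcript length and -0.306 with GC content, and Fis1 has the shortest transcript of the 10 genes (948 bases, against 6230 for Opa1).

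Among the mitophagy genes, Pink1 had 835 ± 129 CPM in sedentary controls and 838 ± 88.4 CPM with PBMT, and Fundc1 23.0 ± 3.61 CPM and 23.8 ± 2.34 CPM (SD, n = 6 each). Sqstm1 ranged from 389 to 668 CPM (median 410.0) in sedentary controls and from 389 to 527 CPM (median 459.5) with PBMT. Its controls other than replicate 4 reached 432 CPM, and 4 of the 6 PBMT mice lay above that value. The log2 fold change of Sqstm1 was 0.03 (standard error 0.121, edgeR adjusted p = 0.954) with the 12 mice and 0.17 (standard error 0.0738, edgeR adjusted p = 0.508) without that control. This 1 library therefore moved the value by more than its standard error, and the gene did not pass the test either way.

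In fatigued muscle PBMT again gave no call among the 10 genes with edgeR (0 of 10, against 0% of all genes) or with DESeq2 (0 of 10, and 2 of all genes). At an unadjusted p below 0.05 edgeR had 0 of the 10 and 230 of the 14574 genes tested. PBMT and control mice overlapped in all 10 genes, and did not overlap in 0.0274% of all genes. The log2 fold changes ran from -0.05 for Mff to 0.06 for Pink1, with a median of -0.01 over the 10 genes and 0.00406 over all genes. The 95% intervals of the 10 fold changes lay between 0.839 and 1.249.

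By role, the mitofusins had 262 ± 18.6 CPM (Mfn1) and 668 ± 33.7 CPM (Mfn2) in fatigued controls and 254 ± 19.9 CPM and 651 ± 55.4 CPM with PBMT (SD, n = 6 each). Without fatigued PBMT replicate 5, the low mouse, their log2 fold changes were -0.0011 and 0.01, against -0.04 and -0.04 with it. Opa1 had 150.0 ± 20.3 CPM and 146 ± 19.5 CPM, the widest spread relative to its mean among the fusion genes, and Oma1 22.1 ± 1.09 CPM and 22.4 ± 1.49 CPM. The fission genes had 69.2 ± 9.83 CPM (Dnm1l), 71.9 ± 3.19 CPM (Fis1) and 107 ± 4.98 CPM (Mff) in fatigued controls. With PBMT these were 69.3 ± 7.47 CPM, 73.3 ± 9.17 CPM and 103 ± 6.80 CPM. Each of these differences was smaller than the SD within the groups. Pink1 had 768 ± 118 CPM and 799.7 ± 137 CPM, Fundc1 19.7 ± 2.10 CPM and 20.1 ± 1.42 CPM, and Sqstm1 669 ± 44.3 CPM and 659 ± 91.0 CPM. Pink1 had the largest standard error, and its interval (fold 0.870 to 1.249) was the widest for PBMT in fatigued muscle.

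Whether PBMT acted differently in the 2 exercise states was tested in a fit of all 24 mice. None of the 10 genes was called (0 of 10 with edgeR and 0 of 10 with DESeq2, against 0.00662% of all genes with edgeR), and 1 of the 10, Oma1, had an unadjusted edgeR p below 0.05, as did 4.40% of all genes. For Oma1 the difference in effect came to 0.20 in log2 units (standard error 0.0838, edgeR adjusted p = 0.946), and for Fis1 it was 0.19 (standard error 0.118, edgeR adjusted p = 0.946). With the length and GC trends removed these values were 0.12 for Oma1 and 0.00505 for Fis1. The value of Fis1 was 0.12 without sedentary control replicate 4 and 0.12 without fatigued PBMT replicate 1. The other 8 genes had differences from -0.09 to 0.05. Of these, Sqstm1 moved from -0.05 to -0.20 (standard error 0.118) without sedentary control replicate 4.

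**Figure D3:**
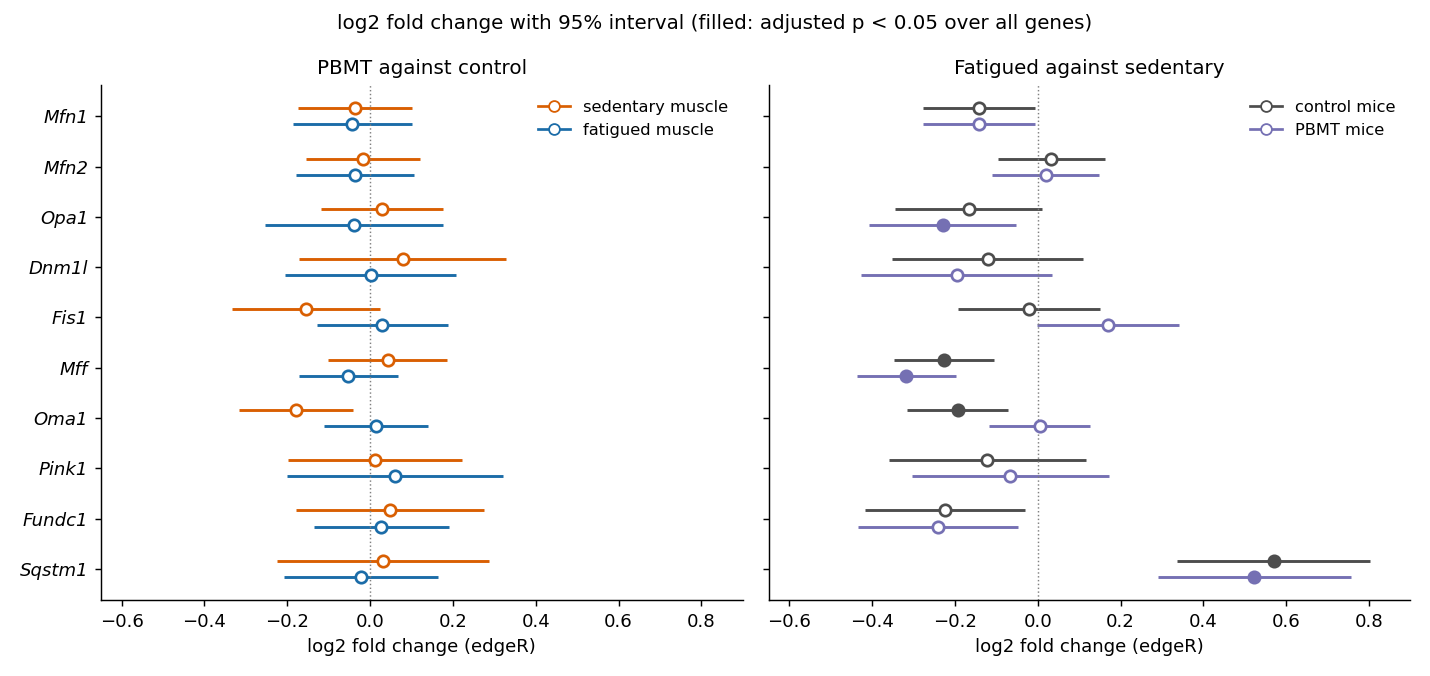
The log2 fold change of each gene is shown with its 95% interval, for PBMT against control on the left and for fatigued against sedentary muscle on the right, with filled points for genes called by edgeR. No PBMT point is filled, and on the right Sqstm1 lies at 0.57 and 0.52, Mff at -0.23 and -0.32, Oma1 at -0.19 in control mice and Opa1 at -0.23 in PBMT mice.

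Fatigued muscle was then compared with sedentary muscle, once in control mice and once in PBMT mice. Sqstm1 was higher and Mff was lower in fatigued muscle in both comparisons, Oma1 was lower in control mice, and Opa1 was lower in PBMT mice. The called genes were 3 of 10 without PBMT, where 18.6% of all genes were called, and 3 of 10 after PBMT, where 26.8% were called, so the share was close to the background in the second comparison and above it by about 1 gene in the first. Without PBMT, 1 of the 10 was higher (9.1% of all genes) and 2 were lower (9.49%). After PBMT, 1 was higher (14.1%) and 2 were lower (12.7%). The groups did not overlap in 1 of the 10 genes without PBMT (7.7% of all genes) and in 3 after PBMT (11.2%). The median log2 fold change over the 10 genes was -0.13 without PBMT and -0.10 after PBMT, against -0.01 and 0.00210 over all genes. Scaling by total counts alone moved the calls among all genes without PBMT from 1375 higher and 1434 lower to 977 and 2166, and removal of the length and GC trends moved those after PBMT from 2135 and 1916 to 1620 and 2245. Across genes, the log2 fold changes had a Spearman rho with GC content of 0.190 without PBMT and 0.316 after PBMT.

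Of the fusion genes, Opa1, which also shapes the cristae, ranged from 154 to 184 CPM (median 169) in sedentary controls and from 131 to 186 CPM (median 144) in fatigued controls. In PBMT mice it ranged from 151 to 181 CPM (median 178) in sedentary muscle and from 118 to 172 CPM (median 151) in fatigued muscle. The fatigued mice spread more widely, and 4 of 6 lay below the lowest sedentary mouse in each comparison. Opa1 had a log2 fold change of -0.17 (standard error 0.0864, edgeR adjusted p = 0.184) in control mice and -0.23 (standard error 0.0864, edgeR adjusted p = 0.0495) in PBMT mice. The call in PBMT mice was close to the threshold, with edgeR adjusted p from 0.0149 to 0.134 over the alternative fits. It was lost with DESeq2, with its size factors, with no filter, with the replicate number as a block, with 12 mice in the fit and with the length and GC trends removed. With these trends removed, the log2 fold change of Opa1 was -0.19 in PBMT mice (edgeR adjusted p = 0.114) and -0.20 in control mice (edgeR adjusted p = 0.119). Of the 24 fits that left out 1 mouse, the call in PBMT mice was kept in 7. These were the fits without fatigued control replicate 1, 4 or 5, fatigued PBMT replicate 2, sedentary control replicate 4 or sedentary PBMT replicate 2 or 6. In control mice Opa1 passed without fatigued control replicate 4 and with total counts only (edgeR adjusted p from 0.0288 to 0.382 over the alternative fits).

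The mitofusins were not called. Mfn1 had log2 fold changes of -0.14 in control mice and -0.14 in PBMT mice (standard error 0.0655 each, edgeR adjusted p = 0.131 and 0.112), with 3 of 6 and 1 of 6 fatigued mice below the lowest sedentary mouse, and passed in control mice with total counts only (edgeR adjusted p 0.0189 to 0.337 over the alternative fits). Mfn2 had 0.03 and 0.02 (standard error 0.0631 each, edgeR adjusted p = 0.758 and 0.856), and these turned to -0.09 and -0.14 with the length and GC trends removed. In Mfn1 and Mfn2 the groups overlapped in both comparisons, although in PBMT mice 4 of 6 fatigued mice lay above the highest sedentary mouse for Mfn2 and 1 of 6, replicate 5, below the lowest.

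Oma1 ranged from 24.01 to 27.0 CPM (median 25.3) in sedentary controls and from 20.3 to 23.5 CPM (median 22.2) in fatigued controls. All 6 fatigued controls lay below the lowest sedentary control (exact two-sided p by permutation = 0.00216, the smallest that 6 mice against 6 allow). The gene fell, with a log2 fold change of -0.19 (standard error 0.0593, fold 0.874, 95% interval 0.803 to 0.951, edgeR adjusted p = 0.0233). In edgeR the call was kept with the length and GC trends removed (adjusted p = 0.0151) and without sedentary control replicate 4 (adjusted p = 0.0195). It was lost with no filter and in 3 of the 24 fits that left out 1 mouse, those without fatigued control replicate 1, fatigued control replicate 6 or sedentary control replicate 3, with an edgeR adjusted p up to 0.138 and down to 0.00701 over all fits. In PBMT mice Oma1 ranged from 20.7 to 25.1 CPM (median 21.99) in sedentary muscle and from 20.7 to 23.98 CPM (median 22.3) in fatigued muscle, and these groups covered nearly the same range. There Oma1 had a log2 fold change of 0.00418 (standard error 0.0593, fold 1.00, 95% interval 0.922 to 1.09, edgeR adjusted p = 0.968). The sedentary controls were the group with the highest Oma1, and the other 3 groups had medians of 21.99, 22.2 and 22.3 CPM. The test of the difference between these contrasts is that of the difference of the PBMT effects, which Oma1 did not pass.

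Of the fission genes, Mff ranged from 105 to 134 CPM (median 129) in sedentary controls and from 102 to 113 CPM (median 107) in fatigued controls. In PBMT mice it ranged from 124 to 135 CPM (median 129) in sedentary muscle and from 90.7 to 110.2 CPM (median 105) in fatigued muscle. In control mice the groups overlapped only through sedentary control replicate 4, at 105 CPM, whereas in PBMT mice all 6 fatigued mice lay below all 6 sedentary mice. The log2 fold change of Mff was -0.23 (standard error 0.0585, fold 0.855, 95% interval 0.786 to 0.929, edgeR adjusted p = 0.00820) in control mice and -0.32 (standard error 0.0585, fold 0.803, 95% interval 0.738 to 0.872, edgeR adjusted p = 2.63e-04) in PBMT mice. Without sedentary control replicate 4 the value in control mice was -0.28 (edgeR adjusted p = 2.35e-04). With the length and GC trends removed both edgeR calls were lost, at -0.11 (adjusted p = 0.378) and -0.06 (adjusted p = 0.614), and that in control mice was also lost with no filter. Mff has the lowest GC content of the 10 genes, at 37.3%. Over all fits the edgeR adjusted p of Mff ran from 2.35e-04 to 0.378 in control mice and from 3.52e-06 to 0.614 in PBMT mice.

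Dnm1l was not called, with log2 fold changes of -0.12 (standard error 0.112, edgeR adjusted p = 0.484) in control mice and -0.20 (standard error 0.112, edgeR adjusted p = 0.207) in PBMT mice. In sedentary controls it ranged from 46.5 to 86.3 CPM (median 78.9), and replicate 4 supplied the lowest value, with the next mouse at 77.3 CPM. Without that mouse the log2 fold change in control mice was -0.23 and passed the threshold (edgeR adjusted p = 0.0464, and 0.0464 to 0.934 over the alternative fits). It was -0.06 without fatigued control replicate 1, -0.08 without sedentary control replicate 6 and -0.18 without fatigued control replicate 4. The groups overlapped in both comparisons. With the trends removed Dnm1l was at -0.01 in control mice and -0.05 in PBMT mice. Fis1 had log2 fold changes of -0.02 in control mice and 0.17 in PBMT mice (standard error 0.0834 each, edgeR adjusted p = 0.887 and 0.139). Its fatigued and sedentary mice overlapped in both comparisons, although 2 of 6 fatigued PBMT mice lay above the highest sedentary PBMT mouse. The highest of these, at 90.2 CPM, was replicate 1, without which the log2 fold change of Fis1 in PBMT mice was 0.11 (standard error 0.0782).

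Sqstm1, whose product binds both ubiquitin and the autophagosome protein LC3, showed the largest difference of the 10 genes. It ranged from 594 to 724 CPM (median 672) in fatigued controls and from 534 to 806 CPM (median 656) in fatigued PBMT mice, where sedentary controls had 389 to 668 CPM (median 410.0) and sedentary PBMT mice 389 to 527 CPM (median 459.5). In PBMT mice all 6 fatigued mice lay above all 6 sedentary mice (exact two-sided p by permutation = 0.00216), and in control mice only sedentary replicate 4, at 668 CPM, lay among the fatigued mice. The gene rose by 0.57 on the log2 scale in control mice (standard error 0.113, fold 1.48, 95% interval 1.26 to 1.74, edgeR adjusted p = 9.64e-04) and by 0.52 in PBMT mice (standard error 0.113, fold 1.44, 95% interval 1.22 to 1.69, edgeR adjusted p = 0.00127). Without sedentary control replicate 4 the rise in control mice was 0.71 (standard error 0.0866, edgeR adjusted p = 3.50e-06, and 3.50e-06 to 0.00369 over the alternative fits). Sqstm1 was called in both comparisons in all 8 alternative fits and all 24 fits without 1 mouse, with log2 fold changes of 0.51 to 0.71 and 0.37 to 0.57, the lowest of the second range with the length and GC trends removed. A gene on the opposite strand, Mrnip, overlaps Sqstm1 and had 1768 counts over the 24 mice. As the strand setting of the counting is not given in the sources used here, reads of these genes cannot be told apart. Sqstm1 had at least 17961 counts in each mouse. The 1768 counts are those assigned to Mrnip, and the part of its reads in the counts of Sqstm1 was not tested.

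The other mitophagy genes were not called. Fundc1, a receptor that binds LC3 and is known for its part under low oxygen, ranged from 16.3 to 26.6 CPM (median 23.5) in sedentary controls and from 16.7 to 23.0 CPM (median 19.4) in fatigued controls. It ranged from 21.5 to 27.8 CPM (median 23.3) in sedentary PBMT mice and from 17.5 to 21.2 CPM (median 20.7) in fatigued PBMT mice, where the groups did not overlap (exact two-sided p by permutation = 0.00216). Fundc1 had a log2 fold change of -0.22 (standard error 0.0942, edgeR adjusted p = 0.0990) in control mice and -0.24 (standard error 0.0941, edgeR adjusted p = 0.0582) in PBMT mice. As the spread is estimated from all mice, leaving out sedentary control replicate 4 also changed the standard error in PBMT mice. Without that mouse Fundc1 passed edgeR in both comparisons, at -0.31 (standard error 0.0765, adjusted p = 0.00459) and -0.25 (standard error 0.0731, adjusted p = 0.0122). It also passed with total counts only in control mice and with 12 mice in the fit in PBMT mice, and its edgeR adjusted p over the alternative fits ran 0.00459 to 0.605 and 0.0122 to 0.690. With the length and GC trends removed it was -0.06 and -0.04, and it has the second lowest GC content of the 10 genes (38.8%). Pink1 had log2 fold changes of -0.12 and -0.07 (standard error 0.116 each, edgeR adjusted p = 0.499 and 0.709) and has the highest GC content (59.0%). The first value was -0.05 without fatigued control replicate 3, -0.06 without sedentary control replicate 4 and -0.08 without sedentary control replicate 6. The second ran from -0.14 to -0.01 with 1 mouse left out. With the trends removed, Pink1 was at -0.27 and -0.31 (the lowest edgeR adjusted p over its alternative fits, 0.125 and 0.0609, the highest being 0.794 and 0.969).

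The wider pathways were described with lists of genes, each of which includes those of the 10 that belong to it. With PBMT, 0 genes of the 10 lists were called in sedentary muscle and 0 in fatigued muscle with edgeR, where 4 (2 to 20 with 1 mouse left out) and 0 of all genes were called (62 and 2 with DESeq2, and 1082 and 230 at an unadjusted edgeR p below 0.05). In sedentary muscle the list medians on the log2 scale were -0.06 for fusion and inner membrane proteases, 0.01 for fission, 0.04 for ubiquitin-dependent mitophagy, 0.02 for mitophagy receptors and their regulators, and -0.01 for core autophagy genes, beside -0.00186 over all genes. Without sedentary control replicate 4 these were -0.02, -0.01, 0.06, -0.02 and 0.02, beside 0.00251, so that fission, receptors and core autophagy changed sign. Apart from the 10, the genes with the smallest p in these lists were Stoml2 at -0.11 (standard error 0.0583, edgeR adjusted p = 0.665), Gdap1 at 0.29 (standard error 0.163, edgeR adjusted p = 0.670), Tomm7 at -0.18 (standard error 0.0898, edgeR adjusted p = 0.648), Fkbp8 at -0.15 (standard error 0.125, edgeR adjusted p = 0.746) and Atg101 at -0.21 (standard error 0.0961, edgeR adjusted p = 0.648). In fatigued muscle the medians of the same 5 lists were -0.04, 0.0019, -0.02, -0.02 and -0.02, beside 0.00406 over all genes. Outside the 10, the smallest p there belonged to Phb (-0.08), Slc25a46 (-0.13), Mul1 (-0.09), Pgam5 (-0.07) and Atg14 (-0.18), each with an edgeR adjusted p of 0.9998. For the difference of the PBMT effects 0 genes of the 10 lists were called, and the list medians ran from -0.15 to 0.07. The lowest was that of the genes of the mitochondrial genome, with 2 of 13 above 0, and its sign rested on sedentary control replicate 4. Without that mouse it turned to 0.07, with 10 of 13 above 0, and the lowest median was -0.06 for transport. With all mice and the length and GC trends removed, that of the mitochondrial genome was -0.20.

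In fatigued against sedentary muscle, calls went both ways in 4 of the 10 lists in control mice (fission, ubiquitin-dependent mitophagy, receptors and core autophagy). In PBMT mice they did so in 4 as well (fission, receptors, core autophagy, and cristae and outer membrane assembly). In the other lists with calls in control mice all were lower. Counts of called genes stand beside 18.6% of all genes called in control mice (9.1% higher and 9.49% lower) and 26.8% in PBMT mice (14.1% and 12.7%). The genes named are those with the smallest p. Of 14 fusion and protease genes tested, 0 higher and 1 lower were called in control mice and 0 higher and 2 lower in PBMT mice, with medians of -0.15 and -0.10. These were Oma1 in control mice and Opa1 and Yme1l1 in PBMT mice. Parl, an inner membrane rhomboid protease, was not called, at -0.17 (standard error 0.0643, edgeR adjusted p = 0.0610) in control mice, and Yme1l1, which cleaves Opa1 constitutively, fell by 0.44 in PBMT mice (standard error 0.0995, edgeR adjusted p = 0.00194). Of 13 fission genes, 2 higher and 3 lower were called in control mice and 2 higher and 3 lower in PBMT mice, Mff among the lower ones. This is 38.5% and 38.5% of the list, with medians of -0.06 and -0.04. The higher ones were Inf2, a formin that assembles actin at fission sites, at 0.63 (standard error 0.151, edgeR adjusted p = 0.00470) in control and 0.81 (standard error 0.151, edgeR adjusted p = 3.07e-04) in PBMT mice, and the dynamin Dnm2 at 0.19 (standard error 0.0522, edgeR adjusted p = 0.0132) and 0.24 (standard error 0.0522, edgeR adjusted p = 0.00152). The lower ones besides Mff were Mtfr1, at -0.29 (standard error 0.0658, edgeR adjusted p = 0.00269) and -0.26 (standard error 0.0658, edgeR adjusted p = 0.00509), and the outer membrane protein gene Slc25a46, at -0.29 (standard error 0.0729, edgeR adjusted p = 0.00716) and -0.43 (standard error 0.0730, edgeR adjusted p = 9.71e-05).

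Of 14 genes of ubiquitin-dependent mitophagy, 3 higher and 1 lower were called in control mice and 2 higher and 0 lower in PBMT mice, Sqstm1 among the higher ones in both. Vcp, the segregase that extracts ubiquitylated proteins from membranes, was higher by 0.42 (standard error 0.0846, edgeR adjusted p = 0.00101) in control and 0.38 (standard error 0.0846, edgeR adjusted p = 0.00180) in PBMT mice. Nbr1, an adaptor related to Sqstm1, was at 0.16 (standard error 0.0549, edgeR adjusted p = 0.0405) in control mice, and Tomm7, which helps to hold Pink1 on the outer membrane, at -0.26 (standard error 0.0894, edgeR adjusted p = 0.0390). Of 12 receptor genes and regulators, 2 higher and 4 lower were called in each comparison. The higher ones were the autophagy kinase gene Ulk1, at 0.35 (standard error 0.0927, edgeR adjusted p = 0.00963) and 0.34 (standard error 0.0926, edgeR adjusted p = 0.00840), and Ambra1, at 0.24 (standard error 0.0726, edgeR adjusted p = 0.0227) and 0.24 (standard error 0.0726, edgeR adjusted p = 0.0172). Among the lower ones were the receptor Bnip3l (Nix), at -0.31 (standard error 0.0656, edgeR adjusted p = 0.00146) and -0.39 (standard error 0.0656, edgeR adjusted p = 1.09e-04), and Fbxl4, which restrains receptor levels, at -0.35 (standard error 0.0931, edgeR adjusted p = 0.0107) and -0.35 (standard error 0.0932, edgeR adjusted p = 0.00670). Pptc7 was lower by 0.37 (standard error 0.112, edgeR adjusted p = 0.0208) in control mice and Fundc2 by 0.46 (standard error 0.103, edgeR adjusted p = 0.00185) in PBMT mice. Of the 34 core autophagy genes, 3 higher and 3 lower were called in control mice and 4 higher and 4 lower in PBMT mice, 17.6% and 23.5% of the list against 18.6% and 26.8% of all genes. Gabarapl1, of the family that coats autophagosomes, was higher by 0.55 (standard error 0.119, edgeR adjusted p = 0.00216) and 0.72 (standard error 0.119, edgeR adjusted p = 8.12e-05), and Rab7 by 0.26 (standard error 0.0594, edgeR adjusted p = 0.00333) and 0.21 (standard error 0.0594, edgeR adjusted p = 0.0102). Pik3c3 was higher in control mice (0.21) and Pik3r4 in PBMT mice (0.28). Atg4c, Atg5 and Wipi1 were lower, at -0.37, -0.28 and -0.23 in control mice and -0.58, -0.45 and -0.24 in PBMT mice. Beside -0.01 and 0.00210 over all genes, the list medians were 0.06 and 0.03 for ubiquitin-dependent mitophagy, -0.05 and -0.11 for receptors, and -0.04 and -0.01 for core autophagy, in control and PBMT mice.

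Lists of mitochondrial structure were taken next, again beside 18.6% and 26.8% of all genes called. Among 10 genes of cristae and outer membrane assembly, 0 higher and 2 lower were called in control mice and 1 higher and 2 lower in PBMT mice. These included the outer membrane protein gene Mtx2, at -0.52 (standard error 0.0968, edgeR adjusted p = 5.60e-04) and -0.43 (standard error 0.0968, edgeR adjusted p = 0.00167), the cristae organizer Chchd3, at -0.30 (standard error 0.0685, edgeR adjusted p = 0.00344) and -0.28 (standard error 0.0685, edgeR adjusted p = 0.00332), and the higher Dnajc11, at 0.19 (standard error 0.0632, edgeR adjusted p = 0.0267) in PBMT mice. Of 5 transport genes, 0 higher and 2 lower were called in control mice (Rhot1 at -0.22 and Rhot2 at -0.25, which anchor mitochondria to motors) and 0 higher and 2 lower in PBMT mice (Rhot1 at -0.31 and the motor gene Kif5b at -0.16). Of 8 chaperone and matrix protease genes, 1 was called in each comparison, the unfoldase gene Clpx, lower at -0.33 (standard error 0.0720, edgeR adjusted p = 0.00208) and -0.31 (standard error 0.0719, edgeR adjusted p = 0.00255). Of 15 nuclear genes used as a reference for mitochondrial content, 0 higher and 5 lower were called in control mice and 0 higher and 2 lower in PBMT mice. The mitochondrial transcription factor gene Tfam was at -0.23 (standard error 0.0479, edgeR adjusted p = 0.00154) and -0.27 (standard error 0.0479, edgeR adjusted p = 1.52e-04), and the import receptor gene Tomm20 at -0.28 (standard error 0.0538, edgeR adjusted p = 7.76e-04) and -0.19 (standard error 0.0538, edgeR adjusted p = 0.0117). Sdhb, of respiratory complex II, was at -0.35 (standard error 0.0902, edgeR adjusted p = 0.00855) in control mice. With PBMT the genes of smallest edgeR p in these lists in sedentary muscle were Chchd6 (-0.33), Kif5b (0.09), Htra2 (-0.16) and Sdhb (-0.25), and 14 of the 15 reference genes had a log2 fold change below 0 there and 14 of 15 in fatigued muscle, with medians of -0.08 and -0.06 and no call. For fatigued against sedentary muscle the list medians were -0.11 in control and -0.09 in PBMT mice for cristae and outer membrane assembly, -0.10 and -0.19 for transport, -0.08 and 0.01 for chaperones and proteases (5 of 8 genes above 0 in PBMT mice), and -0.16 and -0.08 for the reference genes. Subtraction of the mean log2 CPM of the 15 reference genes in each mouse, as a description with no test, put Oma1 at -4.51 ± 0.0334 in sedentary and -4.54 ± 0.0505 in fatigued controls (SD, n = 6 each). For Mff these were -2.21 ± 0.180 and -2.27 ± 0.0310 in control mice and -2.05 ± 0.0989 and -2.26 ± 0.0780 in PBMT mice. Without replicate 4 the sedentary controls were at -2.14 ± 0.103 for Mff (SD, n = 5), an alternative chosen after seeing the data, -4.51 ± 0.0336 for Oma1 and -0.49 ± 0.131 for Sqstm1. Opa1 was at -1.65 ± 0.0889 and -1.77 ± 0.171 in sedentary and fatigued PBMT mice. Sqstm1 was at -0.39 ± 0.284 and 0.37 ± 0.141 in control mice and -0.23 ± 0.236 and 0.40 ± 0.134 in PBMT mice. The reference mean was itself lower in fatigued than in sedentary mice (9.01 and 9.17 in control mice, 8.95 and 9.06 in PBMT mice). Its subtraction thus made each fall smaller and each rise larger. The falls of Oma1 in control mice, Opa1 in PBMT mice and Mff in both were smaller than on the CPM scale, and the rise of Sqstm1 was larger. The fall of Oma1 in control mice lay within the SD of both groups. That of Opa1 in PBMT mice lay within the SD of the fatigued group but exceeded that of the sedentary group. That of Mff in control mice lay within the SD of the 6 sedentary controls. It exceeded the SD of the 5 without replicate 4 and that of the fatigued controls. In PBMT mice the fall of Mff exceeded the SD of both groups.

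Of the 13 protein genes of the mitochondrial genome, 0 higher and 7 lower were called in control mice and 0 higher and 7 lower in PBMT mice, with medians of -0.53 and -0.57. They included mt-Co3, at -1.31 (standard error 0.173, edgeR adjusted p = 1.59e-05) and -1.35 (standard error 0.174, edgeR adjusted p = 5.01e-06), and mt-Co2, at -0.95 (standard error 0.134, edgeR adjusted p = 2.59e-05) and -0.85 (standard error 0.134, edgeR adjusted p = 5.02e-05). With the length and GC trends removed the medians were -0.06 and -0.30, with 0 higher and 5 lower in control mice and 0 higher and 6 lower in PBMT mice. In these fits mt-Co3 was at -0.88 (edgeR adjusted p = 1.14e-04) and -0.98 (edgeR adjusted p = 1.50e-05) and mt-Co2 at -0.48 (edgeR adjusted p = 0.00145) and -0.43 (edgeR adjusted p = 0.00252). The difference of this list in control mice thus depended on whether the trends were removed. Without sedentary control replicate 4 the medians were -0.69 and -0.57, and 0 higher and 13 lower were called in each comparison. With PBMT in sedentary muscle 11 of the 13 had a log2 fold change above 0, with a median of 0.19 and no call. Without that control 5 of 13 did, with a median of -0.02. In fatigued muscle the median with PBMT was 0.01. Their summed share of counts was 2.61% to 15.6% (median 14.9%) in sedentary controls and 12.6% to 15.6% (median 14.8%) in sedentary PBMT mice. In fatigued controls it was 9.51% to 11.2% (median 10.2%), and in fatigued PBMT mice 9.63% to 11.0% (median 10.5%). The fatigued mice thus lay below all sedentary mice but control replicate 4, which had the lowest share of all. Counts were made from poly(A)-selected RNA, in which the recovery of these transcripts may vary between libraries, and the part of selection in this difference was not tested. As a description with no test, the summed level per length of Mfn1, Mfn2 and Opa1 divided by that of Dnm1l, Fis1 and Mff was 1.89 ± 0.106 in sedentary controls, 1.95 ± 0.110 in sedentary PBMT mice, 1.95 ± 0.0693 in fatigued controls and 1.90 ± 0.166 in fatigued PBMT mice (SD, n = 6 each), and the groups overlapped.

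The lists were then counted again in fits without sedentary control replicate 4 and in fits with the length and GC trends removed, which for lists were chosen after seeing the data. Without that mouse, where 1828 genes were called higher and 1942 lower in control mice and 2415 and 2353 in PBMT mice, the genes called in control and PBMT mice were 3 and 3 (fusion and proteases), 6 and 5 (fission), 4 and 4 (ubiquitin-dependent mitophagy), 8 and 7 (receptors), 9 and 10 (core autophagy), 5 and 5 (cristae and outer membrane), 2 and 3 (transport), 2 and 1 (chaperones), 7 and 4 (content reference). Of the genes named above, Tomm7 was no longer called in control mice, at -0.21 (edgeR adjusted p = 0.0759). Parl was called there, at -0.18 (edgeR adjusted p = 0.0482). No call was lost in PBMT mice. With the trends removed, 1059 of 15108 genes were called higher and 1432 lower in control mice. In PBMT mice these were 1620 and 2245 of 15108. The counts of the same lists, of the same sizes and in the same order, were 2 and 3, 5 and 6, 2 and 3, 3 and 4, 7 and 9, 3 and 2, 3 and 3, 2 and 1, 4 and 3. Of the genes named above, Mff lost its call in both comparisons and Opa1 in PBMT mice, at the values given with these genes. The other named genes that lost a call in control mice were Dnm2 at 0.02 (edgeR adjusted p = 0.904), Nbr1 at 0.09 (edgeR adjusted p = 0.389), Tomm7 at -0.08 (edgeR adjusted p = 0.595), Ulk1 at 0.12 (edgeR adjusted p = 0.456), Ambra1 at 0.11 (edgeR adjusted p = 0.344), Pik3c3 at 0.17 (edgeR adjusted p = 0.178). In PBMT mice these were Dnm2 at -1.02e-04 (edgeR adjusted p = 0.999), Ulk1 at 0.08 (edgeR adjusted p = 0.623), Ambra1 at 0.07 (edgeR adjusted p = 0.518), Fundc2 at -0.17 (edgeR adjusted p = 0.109), Rab7 at 0.12 (edgeR adjusted p = 0.246), Pik3r4 at 0.13 (edgeR adjusted p = 0.315), Dnajc11 at -5.11e-04 (edgeR adjusted p = 0.997), Kif5b at -0.03 (edgeR adjusted p = 0.787), Tomm20 at -0.17 (edgeR adjusted p = 0.109). Among calls that were kept in PBMT mice, Yme1l1 moved to -0.19 (edgeR adjusted p = 0.0411), Slc25a46 to -0.27 (edgeR adjusted p = 0.00285) and Wipi1 to -0.38 (edgeR adjusted p = 2.86e-04). No list had more genes called higher once the trends were removed. Named genes that lost their calls in both comparisons were thus Mff, Dnm2, Ulk1 and Ambra1.

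Markers of cell types were summed in each mouse, since in whole muscle a change in the number of cells of a type and a change in RNA per cell cannot be told apart. The 11 genes of fast muscle fibers, led by Myh4, summed to 138019 to 208359.5 CPM (median 152905) in sedentary controls and 144215 to 179320.3 CPM (median 169718) in sedentary PBMT mice, and to 174554 to 224889 CPM (median 212463) and 181672 to 220667 CPM (median 204181) in fatigued control and PBMT mice, as befits the TA. This sum was higher in fatigued muscle in control mice (exact two-sided p by permutation = 0.00649) and in PBMT mice (exact permutation p = 0.00216). Sedentary control replicate 4 had the highest sum of its group. Without it the sedentary controls reached 158049 CPM. This gave an exact permutation p of 0.00433 for fatigued against sedentary control mice and 0.0563 for PBMT in sedentary muscle (0.539 with it). The 3 neutrophil genes, led by S100a9, summed to 20.4 to 44.4 CPM (median 26.3) and 1.04 to 47.8 CPM (median 23.4) in sedentary control and PBMT mice and to 0.101 to 2.32 CPM (median 0.238) and 0.411 to 1.77 CPM (median 0.963) in fatigued ones, with 3 of 3 genes called lower in both comparisons. The 5 macrophage genes, led by Mrc1, summed to 20.1 to 50.8 CPM (median 31.1) and 15.1 to 29.6 CPM (median 20.2) in sedentary mice (exact permutation p = 0.0368 for PBMT, 0 of 5 genes called) and to 36.9 to 59.9 CPM (median 45.0) and 25.7 to 87.2 CPM (median 45.6) in fatigued mice (exact permutation p = 0.0281 without and 0.00649 with PBMT). The 5 fibroblast genes, led by Col3a1, summed to 618 to 973 CPM (median 801), 503 to 989.9 CPM (median 582), 881 to 1488 CPM (median 1225) and 801 to 3052 CPM (median 1168) in the same order, with exact permutation p of 0.0152 and 0.0130 for fatigued against sedentary muscle. Of the 5 genes, edgeR called 0 higher in control mice and 4 in PBMT mice for fibroblasts, and 1 and 5 for macrophages, with none lower. Of the 11 fast fiber genes it called 5 and 3 higher and none lower. These counts stand beside 18.6% and 26.8% of all genes called. Of 5 endothelial genes, 1 and 2 were called higher. Of 4 satellite cell genes, 1 was higher in each comparison and 1 lower in PBMT mice. Of 7 slow fiber genes, 1 was higher in each comparison and 1 lower in control mice. In PBMT mice 1 of 4 tendon genes was higher and 1 keratinocyte gene lower. The sums of the lists for satellite cells (led by Cdh15), endothelial cells (Cdh5), adipocytes (Fabp4), tendon (Tnmd), erythrocytes (Hbb-bs) and slow fibers (Myl3) had exact permutation p of at least 0.0649 in all 4 comparisons. Satellite cells are an exception to this without sedentary control replicate 4, which had the highest sum of its group (31.6 CPM, against 19.0 to 22.8). The exact permutation p was then 0.0411 for PBMT in sedentary muscle and 0.00216 for fatigued against sedentary control mice. Without it the exact permutation p for PBMT in sedentary muscle was 0.0173 for macrophages. For fatigued against sedentary control mice the exact permutation p was 0.0519 for macrophages, 0.0216 for fibroblasts and 0.00216 for neutrophils. These alternatives were chosen after seeing the data. For keratinocytes 1 of 4 genes, Krt10, passed the filter, and the list summed to 1.66 to 5.27 CPM (median 2.40), 1.61 to 25.5 CPM (median 2.51), 1.35 to 4.41 CPM (median 1.83) and 1.16 to 1.97 CPM (median 1.70) in the same order (exact permutation p = 0.0238 for fatigued against sedentary muscle in PBMT mice). Fatigued PBMT replicate 5, the mouse with the lowest Mfn1 and Mfn2 of its group, had the highest sums of its group for fibroblasts (3052 CPM, others 801 to 1523), tendon (87.3 CPM, others 13.98 to 35.98), macrophages (87.2 CPM, others 25.7 to 64.1) and adipocytes (365 CPM, others 194 to 275). This mouse also had the lowest sums of its group for fast fibers (181672 CPM) and satellite cells (23.1 CPM). Its sums for endothelial cells (376 CPM), slow fibers (186 CPM) and neutrophils (1.77 CPM) were the highest of the group. None of the genes of the marker lists was at 0 in all mice, and the exact permutation p-values were not adjusted over the lists. The part of cell composition in the differences of Sqstm1, Mff, Oma1 and Opa1 was not tested.

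Pairs of genes whose products act in 1 step were then followed across mice, as log2 CPM with the group means removed (24 mice, 8 pairs, 100000 permutations within groups, adjustment over the 8 pairs). Mfn1 and Mfn2 varied together, with r = 0.753 (permutation p = 0.00149, adjusted p = 0.00596, rho = 0.679 with p = 0.00147). Without the 2 mice farthest from the median of Mfn1 r was 0.578, and it was 0.862 in the sedentary and 0.680 in the fatigued project. Pink1 and Sqstm1 also varied together, with r = 0.643 (permutation p = 4.80e-04, adjusted p = 0.00384, rho = 0.6252 with p = 0.00101), an r of 0.501 without the 2 farthest mice, 0.750 in the sedentary and 0.590 in the fatigued project. These positive relations were kept with the length and GC trends of each mouse removed, an alternative chosen after seeing the data, at 0.695 (adjusted permutation p = 0.00616) and 0.608 (adjusted permutation p = 0.00836). Mfn2 and Opa1 had r = 0.626 (permutation p = 0.00305, adjusted p = 0.00632, rho = 0.543 with p = 0.0107), but r was 0.163 in the sedentary and 0.831 in the fatigued project and 0.414 without the 2 farthest mice. With the trends removed it was 0.879 (adjusted permutation p = 2.40e-04), and 0.769 in the sedentary and 0.912 in the fatigued project.

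The fission pairs depended on the trends. Dnm1l and Mff had r = 0.778 (permutation p = 0.00316, adjusted p = 0.00632, rho = 0.692 with p = 0.00161), with 0.554 without the 2 farthest mice, 0.978 in the sedentary and 0.483 in the fatigued project, and 0.603 without sedentary control replicate 4. With the length and GC trends removed, r was 0.0275 (adjusted permutation p = 0.902), with 0.362 without sedentary control replicate 4, 0.433 without the 2 farthest mice, -0.465 in the sedentary and 0.368 in the fatigued project. The near absence of a relation thus rests in part on that mouse. Dnm1l and Fis1 were opposed, with r = -0.636 (permutation p = 0.00405, adjusted p = 0.00648, rho = -0.468 with p = 0.0283), -0.423 without the 2 farthest mice, -0.759 in the sedentary and -0.434 in the fatigued project, and the sign turned with the trends removed, to 0.165 (adjusted permutation p = 0.565). Mff and Fis1 showed no relation that passed, with r = -0.318 (permutation p = 0.259, adjusted p = 0.295, rho = -0.281 with p = 0.214), -0.221 without the 2 farthest mice, -0.769 in the sedentary and 0.320 in the fatigued project, and -3.17e-05 without sedentary control replicate 4. Opa1 and its protease Oma1 had r = 0.0926 (permutation p = 0.688, adjusted p = 0.688, rho = 0.122 with p = 0.601), -0.146 without the 2 farthest mice, -0.242 in the sedentary and 0.280 in the fatigued project, against 0.703 (adjusted permutation p = 0.00773) with the trends removed. That relation passed by r but not by rho (0.505, adjusted permutation p = 0.0511). Its r was 0.457 without the 2 farthest mice, 0.344 in the sedentary and 0.821 in the fatigued project. Pink1 and Fundc1 had r = -0.454 (permutation p = 0.0338, adjusted p = 0.0451, rho = -0.333 with p = 0.130), -0.209 without the 2 farthest mice, -0.333 in the sedentary and -0.656 in the fatigued project, and did not pass by rho (adjusted permutation p = 0.173) or with the trends removed, at -0.187 (adjusted permutation p = 0.539). Each mouse is 1 library, so such relations also carry what its genes share in RNA quality and base composition.

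Among 11727 other genes with a mean of at least 1 CPM, the profile most like that of each of the 10 over the 24 mice, by Pearson r of log2 CPM with group means removed, was as follows, given as a description. Sqstm1 was most like Psmd4, a proteasome subunit gene (r = 0.933, rho = 0.893, and r = 0.843 without the 2 farthest mice). Mff was most like Rb1cc1, which encodes the autophagy protein FIP200 (r = 0.924, rho = 0.852, and r = 0.780 without the 2 farthest). Among the fusion genes, Mfn1 was most like the glycogen synthase gene Gys1 (r = 0.846), Mfn2 like Gnpat (r = 0.872) and Opa1 like Atrn (r = 0.906). Dnm1l was most like Msi2 (r = 0.939), Fis1 like Pdrg1 (r = 0.918), Oma1 like Oxld1 (r = 0.766), Pink1 like Nub1 (r = 0.892) and Fundc1 like Nptn (r = 0.843). Oma1 had the weakest match of the 10. As each value is the highest of 11727, it is raised by selection, and how high a value selection alone would give was not tested.

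The promoters of the 10 genes were searched for 4 motifs on both strands, in windows of 300 bases (250 before and 50 after the start) from RefSeq (GRCm38.p6). All 10 genes matched, with 15 windows, since some have several starts. The E-box CACGTG was in 0 of the 15 windows and in 7.15% of all 32851 windows, the core of the antioxidant response element TGACNNNGC in 0 and 12.4%, the element of estrogen-related receptors AAGGTCA in 0 and 4.72%, and the core of the NRF1 site GCGCATGC in 1 and 2.71%. The match was in the Opa1 window, where a match on each strand overlaps the other. The window of Opa1 (chr16:29579084-29579383, plus strand) is shown for this match, which is in capitals, and that of Sqstm1 (chr11:50210771-50211070, minus strand) because it was the gene with the largest difference between fatigued and sedentary muscle, with no match to the 4 motifs. Both are written 5′ to 3′ on the strand of the gene. A match is a description of letters and not of binding, and no match says only that these letters are not in the window.
Opa1: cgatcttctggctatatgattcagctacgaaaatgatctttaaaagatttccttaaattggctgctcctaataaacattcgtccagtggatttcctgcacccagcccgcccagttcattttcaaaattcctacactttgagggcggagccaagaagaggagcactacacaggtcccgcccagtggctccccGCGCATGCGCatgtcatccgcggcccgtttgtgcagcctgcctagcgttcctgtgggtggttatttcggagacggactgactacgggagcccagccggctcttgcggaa
Sqstm1: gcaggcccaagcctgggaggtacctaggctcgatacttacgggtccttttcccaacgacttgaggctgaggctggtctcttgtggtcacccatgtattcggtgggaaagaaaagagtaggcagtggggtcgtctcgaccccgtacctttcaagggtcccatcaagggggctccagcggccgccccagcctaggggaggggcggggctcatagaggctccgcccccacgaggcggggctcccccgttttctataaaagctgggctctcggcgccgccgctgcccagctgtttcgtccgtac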

How the data were processed

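The 10 members and the gene lists were chosen with earlier results of these data known. The values are gene counts per mouse, deposited by the authors, who made them from trimmed and aligned reads. Their processing notes name Trimmomatic, STAR 2.7.1a, Picard 2.20.4, StringTie 2.0.4, featureCounts 1.6.0, HTSeq and the build GRCm38, and state neither the strand setting nor the annotation release. Of 55487 identifiers, 55227 were matched to GENCODE M21, which gave names, transcript lengths and GC content. Libraries were scaled by TMM, genes were filtered by filterByExpr with a minimum count of 10, and tests used the robust quasi-likelihood test of edgeR 4.0.16 in R 4.3.3, with p adjusted over all genes by the Benjamini-Hochberg method. PBMT was tested among the 12 mice of a project, and fatigued against sedentary muscle and the difference of PBMT effects among all 24. DESeq2 1.42.0 was the second tool. Log2 CPM used a prior count of 2. Exact tests used all 924 arrangements of 6 mice against 6, and 8 pairs used 100000 permutations within groups. Trends on transcript length and GC content were fitted by loess with a span of 0.3.

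The genes named in the text are the 10 members, up to 3 called genes in each direction with the smallest p in each of 10 pathway lists (the gene with the smallest p where none was called), the most abundant gene of each marker list (of 12 lists, 1 is not reported here), and the gene most like each member. No file was a copy of another: among 60 pairs of mice within groups, the lowest chi-squared per degree of freedom was 13.4. The edgeR test was also run on simulated counts with known changes, made with means and dispersions taken from these data.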

Additional observations from a re-analysis of the deposited data

Results flagged for a closer look

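In each group of 6 mice, the lowest and the highest CPM of each of the 10 genes were compared with the other 5 by Dixon's ratio (40 groups of values), and 8 groups held a mouse far from the others. Chance gives about 1 in 20 groups. Sedentary control replicate 4 accounts for 4 of the 8, being lowest for Dnm1l at 46.5 CPM (others 77.3 to 86.3), lowest for Mff at 105 CPM (126 to 134), lowest for Fundc1 at 16.3 CPM (22.9 to 26.6) and highest for Sqstm1 at 668 CPM (389 to 432). Fatigued PBMT replicate 5 was lowest for Mfn1 at 215 CPM (253 to 268) and for Mfn2 at 541 CPM (651 to 687). It also had the highest fibroblast, tendon, macrophage and adipocyte marker sums of its group and the lowest fast fiber sum. Sedentary PBMT replicate 6 was lowest for Mfn2 at 561.0 CPM (653 to 666). Sedentary PBMT replicate 2 was highest for Fis1 at 72.3 CPM (62.3 to 65.7). Why these mice lay apart was not tested.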

How the results depend on the processing

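The 10 genes were retested with the size factors of DESeq2, total counts only, no filter, at least 10 counts in every mouse, DESeq2, the replicate number as a replicate block, another set of mice in the fit, the length and GC trends removed, and each mouse left out. Calls of Sqstm1 were kept in all of these fits, and other changes of call are given beside the genes. Replicate numbers were not taken as pairs: profiles of equal number correlated over 0.1 in 4 of 6 pairs of fatigued control and PBMT mice and in 0 of 6 of each other pairing, and the own number was the best match in 3 of 6 there, in 1 of 6 for sedentary control and PBMT mice and in 0 elsewhere, so that shared handling of fatigued mice is not excluded. Each gene had at least 741 counts in each mouse. Total counts were higher in all fatigued than in all sedentary mice, and the part of depth in the calls was not tested. Exercise state cannot be told apart from sequencing project, nor light from the longer run time of PBMT mice in fatigued muscle. Leaving out sedentary control replicate 4 moved calls, and so did removal of the length and GC trends, which were only removed together. Heating without light had no control group, although the paper states that core temperature was held alike in control and PBMT mice. The cause of the changes below was not tested.

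For PBMT in sedentary muscle, 4 genes were called. The count was 16 with no filter, 62 with DESeq2, 11 with the replicate block, 1 with all 24 mice in the fit and 16 with the length and GC trends removed. With 1 mouse left out it was 2 to 20: 2 without sedentary control replicate 1, 2 or 6, 18 without sedentary control replicate 4, and 10, 7 and 20 without sedentary PBMT replicate 2, 4 and 5. For PBMT in fatigued muscle, 0 genes were called with edgeR (230 at an unadjusted p below 0.05), 2 with DESeq2 and 1 with the replicate block. For the difference of the PBMT effects, 1 gene was called with edgeR, 3 with DESeq2 and 1 to 3 with 1 mouse left out, the 3 without sedentary PBMT replicate 2. Of the 10 genes, 3 were called in fatigued against sedentary muscle in control mice, beside 2809 of all 15108 genes. The count was 6 with total counts only (3143 of 15108) and 1 with no filter (2078 of 29970). With the length and GC trends removed, 1 higher and 1 lower were called there (2491 of 15108). With 1 mouse left out the count was 2 to 5, the 5 without sedentary control replicate 4 (3770 of 15273). In PBMT mice 3 were called, beside 4051 of all 15108 genes. The count there was 2 with DESeq2 (4318 of 15108), with its size factors (3998 of 15108), with no filter (3337 of 29970) and with the replicate block (3760 of 15108). With the trends removed it was 1 (3865 of 15108). With 1 mouse left out it was 2 in 17 of the 24 fits, 3 in 6 and 4 without sedentary control replicate 4 (4768 of 15273). The share of all genes called thus also moved between fits.

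Signs of log2 fold changes turned as follows, all in genes not called. With total counts only: PBMT in sedentary muscle Opa1 (-0.013), Pink1 (-0.027) and Sqstm1 (-0.012); fatigued against sedentary muscle in control mice Mfn2 (-0.027); fatigued against sedentary muscle in PBMT mice Oma1 (-0.013); the difference of the PBMT effects Mfn2 (0.028) and Fundc1 (0.029). With no filter: PBMT in fatigued muscle Dnm1l (-0.0032); the difference of the PBMT effects Mfn1 (-0.012). With the replicate block: the difference of the PBMT effects Mfn1 (-0.0030). With the length and GC trends removed: PBMT in sedentary muscle Opa1 (-0.061) and Mff (-0.095); PBMT in fatigued muscle Fis1 (-0.0016) and Oma1 (-0.019); fatigued against sedentary muscle in control mice Mfn2 (-0.088) and Fis1 (0.12); fatigued against sedentary muscle in PBMT mice Mfn2 (-0.14) and Oma1 (-0.10); the difference of the PBMT effects Opa1 (0.012), Mff (0.047), Pink1 (-0.037) and Fundc1 (0.017).

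With 1 mouse left out, log2 fold changes that turned sign ran as follows: PBMT in sedentary muscle Mfn2 -0.030 to 0.020, Opa1 -3.4e-04 to 0.062, Dnm1l -0.031 to 0.12, Mff -0.0080 to 0.057, Pink1 -0.039 to 0.069, Fundc1 -0.037 to 0.098 and Sqstm1 -0.016 to 0.17; PBMT in fatigued muscle Mfn2 -0.053 to 0.010, Opa1 -0.093 to 0.032, Dnm1l -0.056 to 0.064, Fis1 -0.039 to 0.058, Oma1 -0.0088 to 0.036, Pink1 -0.022 to 0.11, Fundc1 -0.017 to 0.075 and Sqstm1 -0.088 to 0.030; fatigued against sedentary muscle in control mice Fis1 -0.067 to 0.046; fatigued against sedentary muscle in PBMT mice Mfn2 -0.012 to 0.063 and Oma1 -0.013 to 0.035; the difference of the PBMT effects Mfn1 -0.044 to 0.039, Mfn2 -0.059 to 0.029, Opa1 -0.12 to 0.0076, Dnm1l -0.13 to 0.031, Pink1 -0.033 to 0.10, Fundc1 -0.067 to 0.061 and Sqstm1 -0.20 to 0.0011.

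Among the pairs, with total counts only, r was 0.395 for Mfn2 and Opa1, -0.103 for Opa1 and Oma1 and -0.366 for Pink1 and Fundc1, none of which passed. With the trends removed, an alternative chosen after seeing the data, r was 0.703 for Opa1 and Oma1, 0.0275 for Dnm1l and Mff, 0.165 for Dnm1l and Fis1, 0.536 for Mff and Fis1 and -0.187 for Pink1 and Fundc1, of which Opa1 and Oma1 passed by r but not by rho (adjusted permutation p = 0.0511). The pairs Mfn1 and Mfn2 and Pink1 and Sqstm1 kept sign and passed in both.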
